A study of Mus musculus with 9 samples.

Results

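Cytosolic ribosomal proteins are the protein components of the ribosome that translates nuclear-encoded mRNA. Their genes were followed here across 9 Affymetrix arrays from mouse cells at 3 stages. The members are the probe sets annotated to exactly 1 gene symbol that is Rpl or Rps with a number and at most one letter, or Rpsa, Rplp0, Rplp1 or Rplp2. Kinase genes of the Rps6k family and pseudogenes were left out. The rule used names only and no measured value. It found 100 of 45101 probe sets, which stand for 46 of 18193 annotated genes. Of these, 91 probe sets and 43 genes passed the filter on low signals and were tested beside 13748 genes in all.

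The series followed cells of a lineage through development and was set up to look at DNA repair genes. Cells labelled NCCs, read here as neural crest cells, were taken by laser capture, which cuts chosen cells out of a tissue section under the microscope. The E8.5 group is embryonic tissue during closure of the neural tube (3 arrays, embryonic day 8.5). The E13.5 group is embryonic dorsal root ganglion (3 arrays, embryonic day 13.5), and the P90 group is adrenal medulla of adult mice (3 arrays, postnatal day 90). All 3 groups carry the same descriptions of total RNA extraction and of biotin labelling from 400 ng of RNA, and the labels name no strain, sex, genotype, treatment or lineage reporter. Stage and tissue change together, so that they cannot be told apart. The labels call the samples biological replicates without giving the number of animals or captured regions, so a p-value measures the spread between these samples only.

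Each ribosome has a small subunit, which reads the mRNA, and a large subunit, which joins amino acids. Proteins of the small subunit are named Rps and those of the large subunit Rpl, and Rplp0, Rplp1 and Rplp2 form the stalk that receives elongation factors. The mRNAs of nearly all of them begin with an uninterrupted run of pyrimidines, the TOP motif (terminal oligopyrimidine), through which the growth regulator mTORC1 controls their translation. Growing and dividing cells make many ribosomes, and assembly takes place in the nucleolus with the help of many factors that do not remain in the ribosome.

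Bases near the annotated transcript start are shown for members whose signal fell between E8.5 and P90, because the TOP motif lies at the start of the mRNA. Sequences are from RefSeq's promoter windows (build GRCm38.p6, 250 bases before to 50 bases after each annotated start), in which 40 of the 46 genes were found. Each line below gives 30 bases, 5′ to 3′ on the transcribed strand, shifted where needed to hold the marked run. The lines of Rps15 and Rpl37a begin after the annotated start, with the run's first base at position 26 and 24. In Rps25 the run begins at position -22 and ends before the annotated start. Whether the marked runs are TOP motifs was not tested. Capitals mark an unbroken run of at least 8 C or T that overlaps the stretch from 20 bases before to 30 bases after the annotated start.

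Rpl14, chr9:120571507-120571536, plus strand: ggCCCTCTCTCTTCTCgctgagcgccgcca
Rpl35, chr2:39005112-39005141, minus strand: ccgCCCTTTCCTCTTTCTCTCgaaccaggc
Rps6, chr4:86857348-86857377, minus strand: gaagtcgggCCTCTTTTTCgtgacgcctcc
Rps10, chr17:27635225-27635254, minus strand: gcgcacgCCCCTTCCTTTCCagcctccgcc
Rps15, chr10:80292437-80292466, plus strand: tgcgcaagcgcagcccgtaCTTCCTTTTCC
Rps25, chr9:44407692-44407721, plus strand: CTTCCTTTTTTTCCgacatcttagcgaggc
Rps26, chr10:128626487-128626516, minus strand: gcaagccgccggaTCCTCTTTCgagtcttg
Rpl37a, chr1:72711266-72711295, plus strand: cgcgcatgcgcattgcgTCCCTTCCTCTTC
Rpsa, chr9:120127756-120127785, plus strand: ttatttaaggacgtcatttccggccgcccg

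The Rpsa line holds no such run and has no capitals. Over all members with a window, 27 of 40 genes (67.5%) held a run, against 26.4% of 27025 genes with a window and 26.3% of the 11032 tested genes with one. The motif CCGGAAG, the core bound by ETS factors such as GABPA, was searched on both strands of the 300 bases. Its reverse reads CTTCCGG and can overlap a pyrimidine run. It stood in 20 of 40 members (50%), against 9.93% of all genes with a window and 18% of the tested ones. AAGATGGC, the core bound by YY1, stood in 7.5% of members, 3.19% of all genes and 4.73% of tested genes. CACGTG, the E-box bound by Myc and Max, stood in 10% of members, 8.09% of all genes and 11.2% of tested genes. TATAAA stood in 12.5% of members, 15.7% of all genes and 9.66% of tested genes. The upstream 250 bases of Rps6 and Rps25 show the ETS core in place, with CCGGAAG in capitals, 91 bases before the start in Rps6 and 73 bases before it in Rps25.

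Rps6 upstream, chr4:86857368-86857617, minus strand: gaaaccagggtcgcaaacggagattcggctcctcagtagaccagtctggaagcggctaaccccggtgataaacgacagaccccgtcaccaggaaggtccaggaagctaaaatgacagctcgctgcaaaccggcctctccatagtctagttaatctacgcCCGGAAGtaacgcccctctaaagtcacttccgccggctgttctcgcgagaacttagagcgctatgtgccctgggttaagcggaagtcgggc
Rps25 upstream, chr9:44407464-44407713, plus strand: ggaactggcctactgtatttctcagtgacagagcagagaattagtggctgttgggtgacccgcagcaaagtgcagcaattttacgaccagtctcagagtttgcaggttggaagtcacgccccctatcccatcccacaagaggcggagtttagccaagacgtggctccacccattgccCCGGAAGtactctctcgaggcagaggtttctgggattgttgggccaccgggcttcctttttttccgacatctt

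These matches are descriptions of the letters near annotated starts, and no binding was measured. Of the 10 members that fell between E8.5 and P90, 9 had a window, and 8 of those held a pyrimidine run and 6 held CCGGAAG. Of the 28 members with a window that were not called, 18 held a run and 13 held CCGGAAG. The median log2 difference between P90 and E8.5 was -0.92 over 26 tested members with a run and -0.82 over 11 without.

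The arrays differ in ways that touch every result below. The deposited signals were used without further scaling, and the array medians over all probe sets ran from 38.3 to 48.2. The bright end, where the members lie, differed more: the 99th percentile of signal was 3682 to 3986 on the E8.5 arrays, 4825.2, 2178 and 3812.6 on the E13.5 arrays and 4051, 2498.4 and 1973.9 on the P90 arrays. E13.5 replicate 2 and P90 replicates 2 and 3, the lowest here, also had the lowest member medians; the part of this in the results was not tested. Replicates correlated at 0.833 to 0.985 within a stage over all tested genes, and arrays of different stages at 0.69 to 0.846. The marker genes of the labelled tissues followed the labels in part. All 7 tested adrenal medulla markers were higher at P90 than at E8.5, and 3 of 4 tested sensory ganglion markers were higher at E13.5 than at E8.5. Of 7 neural crest markers, 5 were lower at P90 than at E8.5, among them Foxd3 and Pax3. Already at E13.5, 3 of the 7 neural crest markers were lower and 3 of the 7 medulla markers higher than at E8.5. Against E13.5, 6 of the 7 medulla markers were higher at P90, but only 1 of the 4 ganglion markers was lower. At P90, 1 of the 4 ganglion markers was higher than at E8.5. Markers of other cells were also present. The summed signal of 5 red cell genes was 2339.5 to 9189.8 at E8.5, 489.2 to 8723.4 at E13.5 and 247.6 to 410 at P90, and that of 5 mesenchymal genes was 974.4 to 1976.4, 3480.3 to 12162.8 and 858.2 to 4498.6. The sum of 5 macrophage genes was 1282.3 to 1859.4, 2010.3 to 2532 and 2633 to 4158.1, without overlap, with 3 of the 5 (C1qb, C1qc and Cd68) called higher at P90 than at E8.5. That of 5 endothelial genes was 140.5 to 584.6, 682.1 to 1732.4 and 575.9 to 3356.7, with 1 of 5 called higher. That of 4 adrenal cortex genes was 107.4 to 160.3, 242.2 to 333.8 and 73.2 to 547.2, with 1 of 4 called higher at P90 than at E8.5. Their part in the results was not tested.

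E13.5 replicate 2 stands apart from the other arrays. The log2 signal of the Actb control probe set at the 3′ end of the transcript exceeded that at the 5′ end by 7 on this array and by 0.85 to 4.82 on the other 8; a larger gap goes with shorter labelled fragments. On E13.5 replicate 2 the members lay a median 0.98 below the mean of the other E13.5 arrays on the log2 scale, against 0.38 below for all probe sets that passed the filter. The gap depended on the probe set: the median was -0.43 for members whose name ends in _x_at, -0.98 for those ending in plain _at and -1.41 for those ending in _a_at. The counts of called genes and the medians at E13.5, for the members and for the other lists of the translation machinery, are therefore given with and without this array.

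Ribosomal protein genes were bright on all arrays and brightest at E8.5. The median log2(signal + 16) over the 43 tested members was 12.48, 12.5 and 12.5 on the E8.5 arrays. It was 12.47, 11.12 and 12.2 on the E13.5 arrays and 11.93, 11.48 and 11.16 on the P90 arrays. All 3 P90 arrays lay below all 3 E8.5 arrays, while E13.5 replicate 1 was at the level of E8.5 and E13.5 replicate 2 was below every P90 array. The median over all tested genes moved less, from 7.33 to 7.84, with no order by stage. The members' share of the summed signal of all tested genes was 3.29%, 3.22% and 3.15% at E8.5, 2.61%, 2.57% and 2.4% at E13.5, and 2.02%, 2.08% and 2.24% at P90. On this measure the 3 stages did not overlap, and E13.5 replicate 2 lay between its replicates. The signals come close to the top of the array's range: the brightest member reached 5354.4 to 9886.2 where the brightest probe set of the same array reached 8860 to 11243.9. In bulk RNA, fewer cells with many ribosomes and less ribosomal protein mRNA in each cell cannot be told apart.

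**Figure D1:**
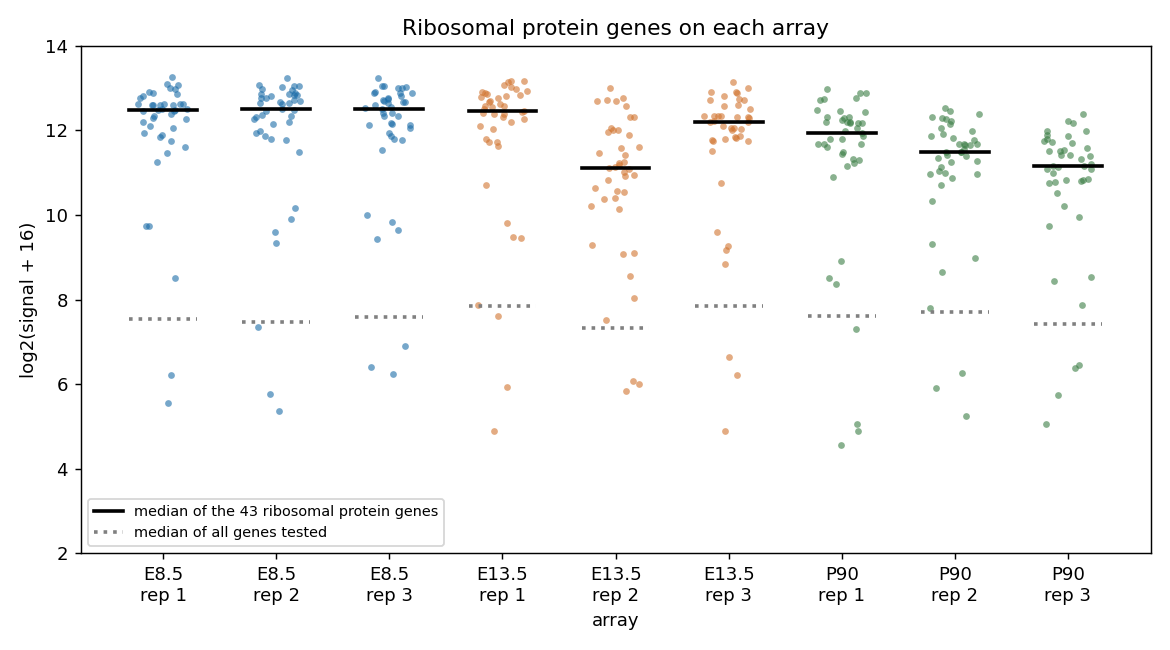
Each point is 1 of the 43 tested ribosomal protein genes on 1 array, as log2(signal + 16) of its brightest probe set; black bars are the members' median and dotted grey bars the median of all tested genes. The members' median is 12.48 to 12.5 on the E8.5 arrays and 11.16 to 11.93 on the P90 arrays, and E13.5 replicate 2 has the lowest, 11.12.

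Between E8.5 and adult adrenal medulla (P90), 10 of 43 ribosomal protein genes fell and none rose at an adjusted p under 0.05 in limma's moderated test. These are 23.3% of the members, against 12.5% of all tested genes called lower and 10.9% called higher. In 42 of 43 members the fitted difference was below 0, against 49.8% of all genes, and in 38 of 43 (88.4%) every P90 array lay below every E8.5 array, against 23.4% of all genes. In no member did every P90 array lie above every E8.5 array, against 19.8% of all genes. At an unadjusted p under 0.05, 26 members were lower and 0 higher, against 18.5% and 17% of all genes. The median log2 difference was -0.88, with a range from -2.96 to 0.01, where the median over all tested genes was 0. The small subunit had 7 of 21 members called and a median of -0.94, the large subunit 3 of 20 and -0.86, and the stalk 0 of 2 and -1.25. Fold values below are on the scale of signal + 16, which understates the difference for dim probe sets.

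The count of 10 depended on the arrays used. Without E8.5 replicate 1 it was 4 (9.3% of members, against 9% of all genes). Without E8.5 replicate 2 it was 5 (11.6% against 7.62%), and without E8.5 replicate 3 it was 4 (9.3% against 8.06%). It was 6 without P90 replicate 2 (14% against 9.33%) and 5 without P90 replicate 3 (11.6% against 8.44%). Each of these sets lies within the 10. The count was 21 without P90 replicate 1 (48.8% against 14.7%) and 27 without E13.5 replicate 2 (62.8% against 15.9%), a set that includes all 10. E13.5 replicate 2 enters this comparison through the shared estimate of the spread and through the filter. Without it 13391 genes were tested. With the arrays quantile-normalized, 13 members were called (30.2% against 15.4% of all genes), and the median difference was -0.44 in place of -0.88. Rps6, Rps10, Rps15 and Rpl37a were no longer called, so that 6 of the 10 remained.

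**Figure D2:**
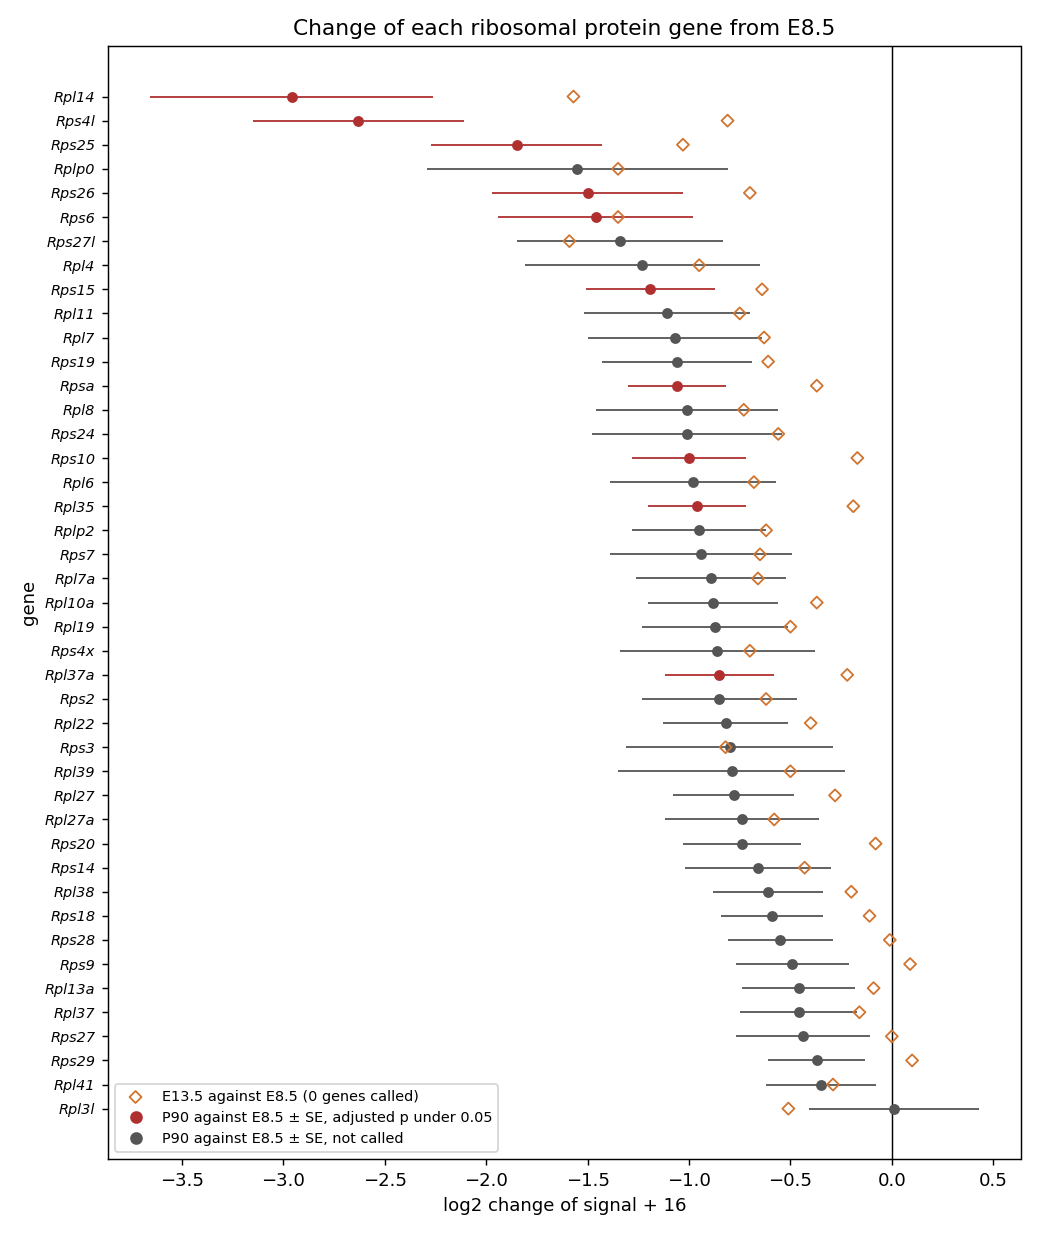
Filled points are the log2 difference between P90 and E8.5 (bars: SE) for each of the 43 tested members, red where the adjusted p is under 0.05; open diamonds are the difference between E13.5 and E8.5. The 10 red genes range from Rpl14 at -2.96 to Rpl37a at -0.85, and Rpl3l alone lies above 0, at 0.01.

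Rps6, Rps10, Rps15, Rps25, Rps26 and Rpsa are the small subunit proteins of the shared ribosome that fell. Rps25 is a protein of the small subunit's head known for its role in initiation at internal ribosome entry sites. Its signal (probe set 1430978_at) was 2438, 939 and 899 at E8.5, 689, 605 and 561 at E13.5, and 312, 388 and 329 at P90. The 3 stages formed 3 separate ranges, with E8.5 replicate 1 far above its replicates. P90 was 3.61-fold lower than E8.5 (log2 difference -1.85 ± 0.42 SE, adjusted p = 0.00842). This call held in all 23 alternatives run, with adjusted p from 0.00322 to 0.0459.

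Rpsa is a small subunit protein also known as the laminin receptor precursor. Its probe set 1448245_at read 9886, 9687 and 9696 at E8.5, 8355, 6577 and 7737 at E13.5, and 5044, 4933 and 4065 at P90. Its stages did not overlap. On E8.5 replicate 1 it was the brightest probe set of the array, so the fold is given from signals at the top of the range. P90 was 2.09-fold lower (-1.06 ± 0.24 SE, adjusted p = 0.00716). The call was lost in 1 alternative, the one that drops E8.5 replicate 1, E13.5 replicate 2 and P90 replicate 2, which have the largest Actb difference of their stage (adjusted p = 0.0813).

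Rps6, the small subunit protein that S6 kinases phosphorylate downstream of mTORC1, was measured by 1416142_at at 847, 630 and 675 at E8.5, 181, 245 and 441 at E13.5, and 143, 487 and 216 at P90. Every later array was below every E8.5 array, and the E13.5 and P90 ranges overlapped. P90 was 2.75-fold lower (-1.46 ± 0.48 SE, adjusted p = 0.0461). The call was lost in 11 of 23 alternatives, the removal of any E8.5 array or of P90 replicate 1 or 3 among them (adjusted p up to 0.133). Leaving out _x_at and _s_at probe sets also lost it. Its other probe set, 1453466_at, was dim, at 4 to 21.5, and did not pass the filter.

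Rps26 sits where mRNA leaves the small subunit and is mutated in Diamond-Blackfan anaemia, an inherited failure of red cell production. Its signal (1415876_a_at) was 4694, 4959 and 4439 at E8.5, 4385, 1491 and 3628 at E13.5, and 2757, 1668 and 971 at P90. The P90 arrays spread widely among themselves but stayed below E8.5. P90 was 2.83-fold lower (-1.5 ± 0.47 SE, adjusted p = 0.0368), a call lost in 8 of 23 alternatives, the removal of any E8.5 array, of E13.5 replicate 3 or of P90 replicate 2 or 3 among them.

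Rps15 and Rps10 are named because they were called, after their values were seen. Rps15, a protein of the head needed for export of the small subunit from the nucleus, read 6313, 4044 and 4249 at E8.5, 3169, 2432 and 3684 at E13.5, and 1895, 2601 and 1826 at P90 (1416088_a_at; -1.19 ± 0.32 SE, adjusted p = 0.019). Rps10, another gene mutated in Diamond-Blackfan anaemia, read 6202, 5283 and 5202, then 5674, 4107 and 5119, then 3232, 2832 and 2291 (1439374_x_at; -1 ± 0.28 SE, adjusted p = 0.0217). In both, P90 lay wholly below E8.5, and in Rps10 also below E13.5. The Rps15 call was lost without E8.5 replicate 1 or 3 or P90 replicate 3, and that of Rps10 without any E8.5 array or P90 replicate 2 or 3.

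Rpl14, Rpl35 and Rpl37a are the large subunit proteins that fell. Rpl14 had a larger fitted difference than any other member on the scale of signal + 16; on signal + 1 that of Rps4l was larger, so no order is given. Its tested probe set (1422128_at) read 2821, 1131 and 1013 at E8.5, 882, 168 and 753 at E13.5, and 351, 205 and 72.2 at P90. The E8.5 arrays were above all the others, E8.5 replicate 1 most of all. P90 was 7.77-fold lower (-2.96 ± 0.7 SE, adjusted p = 0.0098), and without E8.5 replicate 1 the adjusted p was 0.0517.

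Rpl35, which lies near the exit of the peptide tunnel, read 8138, 8667 and 8176 at E8.5, 7737, 6578 and 7562 at E13.5, and 4598, 4515 and 3788 at P90 (1434231_x_at). E8.5 and E13.5 lay close together and P90 well below both. P90 was 1.94-fold lower than E8.5 (-0.96 ± 0.24 SE, adjusted p = 0.0126), a call lost in 6 alternatives. Among them were the removal of E8.5 replicate 2 or 3 or of P90 replicate 2. The mean of probe sets and leaving out _x_at and _s_at probe sets also lost it. Rpl37a, a zinc finger protein, had a similar course, with 5682, 5627 and 5438, then 5081, 4150 and 5216, then 3244, 3608 and 2535 (1460543_x_at; -0.85 ± 0.27 SE, adjusted p = 0.0401). Its call was lost in 12 of 23 alternatives, among them the removal of any E8.5 array, of E13.5 replicate 3 or of P90 replicate 2 or 3. Leaving out _x_at and _s_at probe sets also lost it. Rpl35 and Rpl37a were named after their values were seen.

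**Figure D3:**
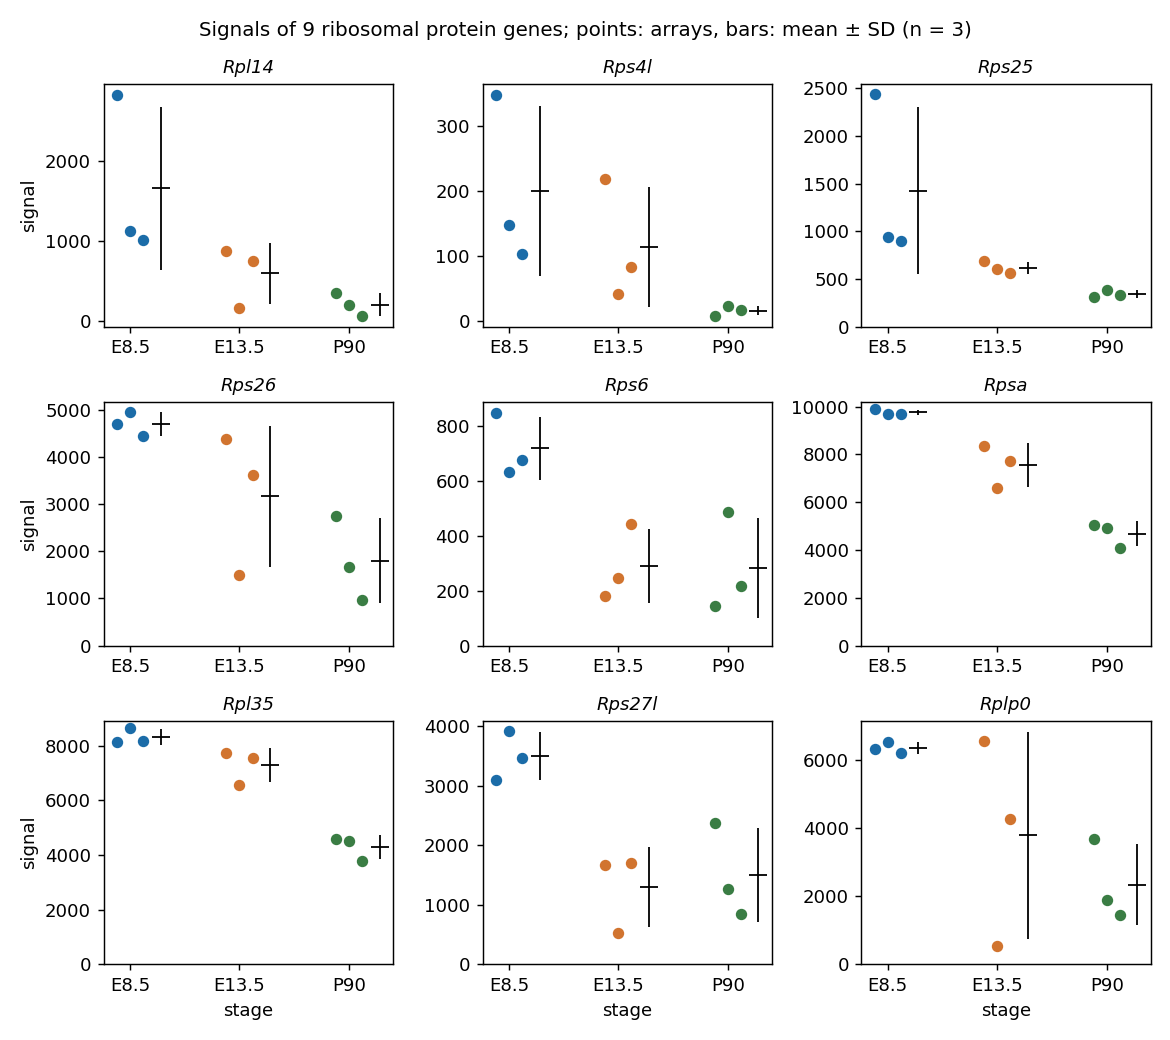
Signals of 9 ribosomal protein genes on each array (points), with the mean ± SD of 3 arrays (bars) beside them; each panel has its own linear axis. In Rpl14, Rps4l and Rps25 the E8.5 group holds 1 array far above its replicates, and in Rpsa the E8.5 values, 9687 to 9886, lie near the top of the array's range.

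The stalk proteins were lower at P90 without passing the test. Rplp0, the base of the stalk, read 6330, 6536 and 6209 at E8.5, 6567, 538 and 4279 at E13.5, and 3689, 1875 and 1457 at P90 (1419441_at). P90 did not overlap E8.5, while the E13.5 arrays spanned the whole range. The log2 difference between P90 and E8.5 was -1.55 ± 0.74 SE, with an adjusted p of 0.158, and without E13.5 replicate 2 that p was 0.00722. Rplp2 read 5811 to 7263 at E8.5 and 3266 to 3882 at P90 (-0.95 ± 0.33 SE, adjusted p = 0.0562).

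Other members with known extra roles or links to disease were lower by their fitted values but did not pass the test. Rps19, the gene most often mutated in Diamond-Blackfan anaemia, read 5772, 5790 and 5769 at E8.5, 5511, 2061 and 4766 at E13.5, and 3279, 2833 and 2275 at P90. The stages did not overlap between E8.5 and P90, and the log2 difference was -1.06 ± 0.37 SE (adjusted p = 0.0609). Rpl11, which with the 5S particle binds the p53 regulator Mdm2, had a difference of -1.11 ± 0.41 SE (adjusted p = 0.0767). Rpl22, which lymphocyte development depends on, had -0.82 ± 0.31 SE (adjusted p = 0.0767). Rpl38, required for translation of some Hox mRNAs, had -0.61 ± 0.27 SE (adjusted p = 0.127), and Rpl13a, a part of the interferon-gamma-activated inhibitor of translation, had -0.46 ± 0.28 SE (adjusted p = 0.266). In Rps19, Rpl11, Rpl22 and Rpl38 every P90 array was below every E8.5 array. In Rpl13a the ranges overlapped on the tested probe set, 1455485_x_at. Its probe set 1433928_a_at read 3557, 2977 and 3018 at E8.5 and 1531, 1341 and 890 at P90, without overlap, and was called lower among the probe sets (-1.36 ± 0.35 SE, adjusted p = 0.0189); its other 2 probe sets were not called. With _x_at and _s_at probe sets left out, the gene itself was called (adjusted p = 0.0202).

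Paralogs outside the common set of ribosomal proteins had courses of their own. Rps4l, a copy of the X-linked Rps4x, read 348, 148 and 102 at E8.5, 218, 40.8 and 83.4 at E13.5, and 7.73, 22.1 and 17.1 at P90 (1452730_at). All P90 signals were under the filter's level of 26.1, and both earlier stages lay above them. P90 was 6.18-fold lower than E8.5 (-2.63 ± 0.52 SE, adjusted p = 0.00364), and the call held in all 23 alternatives, with log2 differences from -3.51 to -1.62. Rps4x itself read 5626 to 6903 at E8.5 and 2689 to 4699 at P90, a difference of -0.86 ± 0.48 SE (adjusted p = 0.226). The difference between the courses of the copies was not tested.

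Rps27l, a copy of Rps27 induced by p53, had a fitted difference between E13.5 and E8.5 of -1.59, the largest of the members beside that of Rpl14 at -1.57. It read 3105, 3919 and 3472 at E8.5, 1669, 525 and 1709 at E13.5, and 2376, 1263 and 844 at P90 (1450925_a_at). Both later stages lay below E8.5 and overlapped each other. The difference between E13.5 and E8.5 was -1.59 ± 0.51 SE (adjusted p = 0.0543, 0.00133 to 0.252 over the alternatives), and 8 of 23 alternatives called it. Its other 2 probe sets read 2183 to 3595 at E8.5 and 387 to 1561 at E13.5, also with no overlap. Rps27 was represented by a dim probe set (1460699_at) at 13.5 to 60.7 on all arrays, and the difference between P90 and E8.5 was -0.44 ± 0.33 SE.

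Rpl3l, a paralog of Rpl3 made in striated muscle, was dim at every stage, at 13.4 to 68.2, and showed no order by stage (P90 against E8.5, 0.01 ± 0.42 SE). Rpl39l, a paralog of Rpl39 known from the testis, stayed at 1 to 51.2 and did not pass the filter. Rpl39 read 3658 to 3886 at E8.5 and 1167 to 4290 at P90, with overlap (-0.79 ± 0.56 SE, adjusted p = 0.343). The only Rps16 probe set with 1 symbol, 1455835_at, read 5.25 to 22.7 on all arrays and was not tested. This dim probe set does not give the level of the gene. Rpl12 had no value on the 3 E8.5 arrays and was not tested; it read 284, 223 and 382 at E13.5 and 127, 168 and 162 at P90, with every P90 array below every E13.5 array.

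Between E8.5 and the E13.5 dorsal root ganglion, 0 of 43 ribosomal protein genes passed the test in either direction, where 7.22% of all tested genes were called lower and 9.27% higher. At an unadjusted p under 0.05, 4 members were lower (Rps27l, Rps6, Rps25 and Rpl14) and 0 higher, against 13.2% of all genes lower and 15.2% higher. The fitted difference was below 0 in 41 of 43 members, against 48.5% of all genes, and 14 members (32.6%) had every E13.5 array below every E8.5 array, against 17.2% of all genes, and 0 had every E13.5 array above, against 17.8%. The median difference was -0.56, with a range from -1.59 to 0.1, beside 0.02 for all genes. Without E13.5 replicate 2 it was -0.15, beside 0.1 for all genes, with 35 of 43 members below 0 and again 0 called. The 3 comparisons share arrays in pairs, so their member values are not independent of each other.

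Some members read close to their E8.5 level on E13.5 replicates 1 and 3. Rps29 read 8214, 8042 and 8327 at E8.5 and 9172, 8188 and 8989 at E13.5, a difference of 0.1 ± 0.24 SE. Rps28 read 7672, 7429.8 and 7601, then 8029, 6899 and 7701 (-0.01 ± 0.26 SE). Rps3, with 7587, 8539 and 8251 at E8.5, was at 8596 and 6199 on E13.5 replicates 1 and 3 but at 1813 on replicate 2 (-0.82 ± 0.51 SE). Rps29, Rps28 and Rps3 were picked after their values were seen, to show how far replicate 2 departs in different genes.

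Between E13.5 and P90, 1 of 43 members fell and none rose, where 5.94% of all tested genes were called lower and 3.54% higher. The member was Rps4l, 3.53-fold lower at P90 (-1.82 ± 0.52 SE, adjusted p = 0.0489). This call was lost in 14 of 23 alternatives, median centring and the removal of E8.5 replicate 2 or 3, E13.5 replicate 1 or 3 or any P90 array among them (adjusted p from 0.0133 to 0.144). The fitted difference was below 0 in 40 of 43 members, against 53.8% of all genes, with a median of -0.41 beside -0.05 for all genes. In 9 members (20.9%) every P90 array lay below every E13.5 array, against 13.2% of all genes: Rps4l, Rps10, Rps25, Rpl35, Rpsa, Rpl37a, Rps9, Rps28 and Rps29. In 0 members did every P90 array lie above every E13.5 array, against 9.04% of all genes. At an unadjusted p under 0.05, 6 members were lower and 0 higher, against 12.8% and 8.51% of all genes. Without E13.5 replicate 2 the median was -0.73, beside -0.2 for all genes, and 5 members were called lower (11.6%, against 9.13% of all genes). With quantile normalization of all 9 arrays the members' median was -0.08, beside -0.02 for all genes, with 31 of 43 members below 0.

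The probe sets of a gene give a second view of each member, since 20 members had more than 1 probe set that passed the filter. Of the 91 passing probe sets, 23 were called lower at P90 than at E8.5, against 11.2% of all probe sets, 1 was called lower at E13.5 than at E8.5, against 6.98%, and 2 were called lower at P90 than at E13.5, against 4.6%. None was called higher, against 9.57%, 7.99% and 2.88% of all probe sets in the same order. The 2 at P90 against E13.5 were 1455600_at of Rps3 and 1450417_a_at of Rps20, neither of which stands for its gene. The Rps4l probe set, 1452730_at, was not called in this limma fit over probe sets (adjusted p = 0.0642). In 18 of the 20 genes all probe sets were lower at P90 than at E8.5 by their fitted value, and in the other 2 they were mixed. Rpl35 was the most divided, with a span of 2.24 between its probe sets: 5 were lower at P90, while the dim 1454833_at read 92.4 and 114 at E8.5, with the remaining E8.5 value empty, and 142, 310 and 192 at P90.

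Names ending in _x_at mark probe sets some of whose probes also match other sequences. This concerns ribosomal protein genes in particular, which have many processed pseudogenes and near-identical copies, so a level read from such a probe set is uncertain as to its source. Such probe sets made up 40 of the 100 and represented 16 of the 43 tested genes. With _x_at and _s_at probe sets left out, 11 of 38 tested members were called lower at P90 than at E8.5. That was 28.9%, against 11.5% of all genes. Of the 10 members called before, 7 were among them, and Rps6, Rpl35 and Rpl37a were not. Between E8.5 and P90 the median difference was -0.81 over 39 passing _x_at probe sets, -1.07 over 26 _a_at probe sets and -1.09 over 23 plain _at probe sets. Between E8.5 and E13.5 it was -0.19, -0.69 and -0.69. By brightness, 32 probe sets with a mean signal over 4000 had a median of -0.82 at P90 against E8.5, 38 between 1000 and 4000 had -1.07, and 21 under 1000 had -1.28. Of these, 7, 5 and 11 were called lower, in the same order, against 11.2% of all probe sets. The share of the suffix and of brightness in these differences was not tested.

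Rps9 shows how far probe sets of the same gene can part. Probe set 1433689_s_at read 4263, 200 and 1718 on the E13.5 arrays, whereas 1434624_x_at read 3350, 3087 and 3401 on the same arrays. The other passing probe set, 1426958_at, read 658, 438 and 381 at E8.5, 235, 70 and 215 at E13.5, and 112, 96.8 and 117 at P90. The low value of E13.5 replicate 2 is thus present in 1433689_s_at and 1426958_at and absent in 1434624_x_at, the one that stands for the gene. Probe set 1426958_at was the member probe set called at E13.5 against E8.5 (-1.54 ± 0.44 SE, adjusted p = 0.037), and it was also called at P90 against E8.5 (-1.99 ± 0.44 SE, adjusted p = 0.00821). The other 2 were not called.

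**Figure D4:**
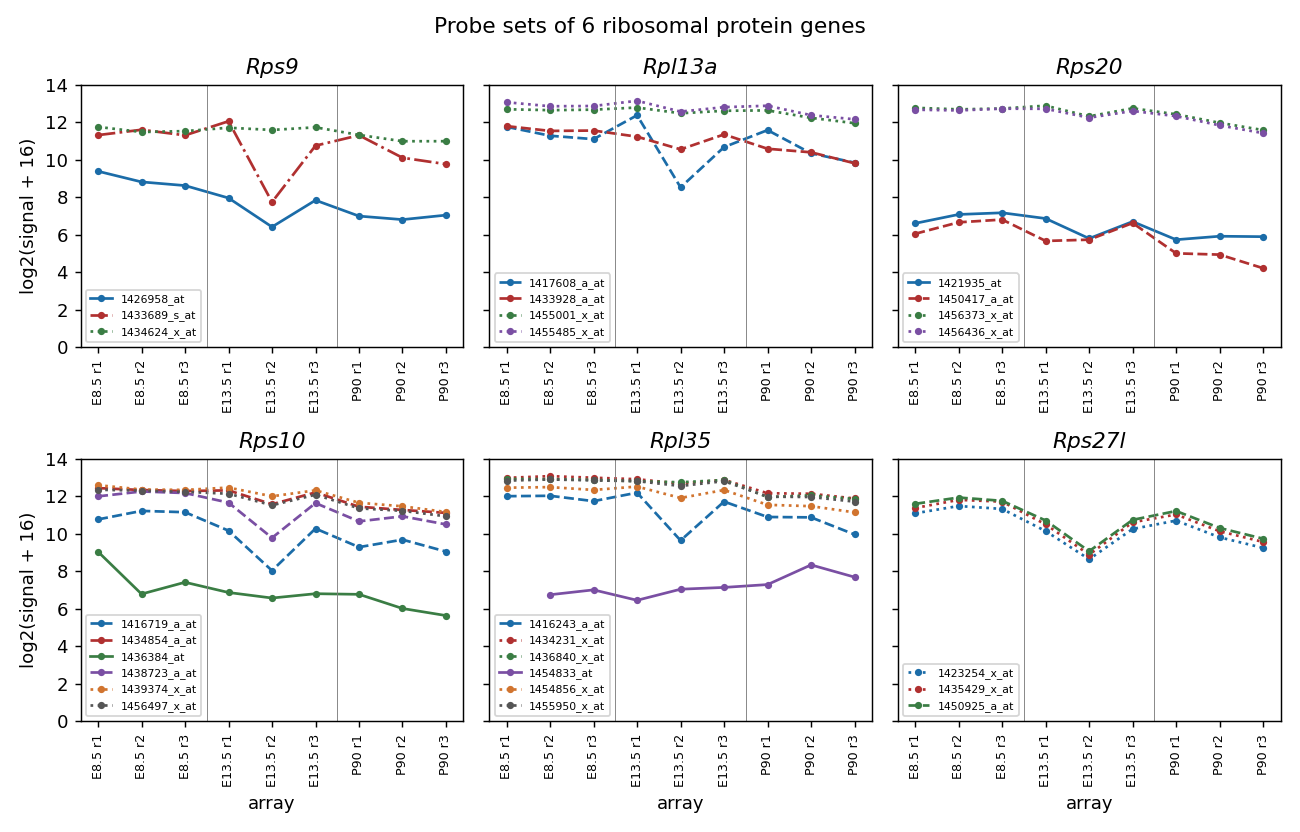
Log2(signal + 16) of every passing probe set of 6 members on the 9 arrays (r1 to r3 are replicates; solid lines _at, dashed _a_at, dash-dot _s_at, dotted _x_at). On E13.5 replicate 2 probe set 1433689_s_at of Rps9 drops to a signal of 200 while 1434624_x_at stays at 3087, and the 3 probe sets of Rps27l run in parallel.

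The factors that assemble ribosomes had more called genes and larger median differences than the ribosomal proteins at E13.5 and P90 against E8.5, but not at P90 against E13.5; no test compared the lists. Of 38 tested ribosome biogenesis genes, 25 were lower at E13.5 than at E8.5 and 0 higher, with a median log2 difference of -1.72, where 7.22% of all tested genes were called lower. At P90, 30 were lower than at E8.5 and 0 higher, with a median of -2.01, where 12.5% of all genes were called lower. Nop56, a core protein of the box C/D particles that methylate ribosomal RNA, fell from 2571 ± 226 (SD) at E8.5 to 329.4 ± 139.7 (SD, n = 3) at P90. The difference was -2.98 ± 0.49 SE (adjusted p = 0.00158), and 1 of the 3 E8.5 values was empty. Rrp1b, a nucleolar protein, fell from 1417.1 ± 227.1 to 177 ± 25.4 (-2.89 ± 0.37 SE, adjusted p = 0.000222). Between E8.5 and E13.5 the largest falls were those of Dkc1, the pseudouridine synthase dyskerin (-2.62 ± 0.47 SE, adjusted p = 0.00286), and Nip7, which acts in processing of ribosomal RNA (-2.58 ± 0.61 SE, adjusted p = 0.013). Between E13.5 and P90, 1 of the 38, Bysl, fell (-1.94 ± 0.37 SE, adjusted p = 0.00611), a share below the 5.94% of all genes called lower. The median there was -0.21, less than the -0.41 of the ribosomal proteins. It was -0.7 with 3 genes called without E13.5 replicate 2, 0.11 without E13.5 replicate 1, -0.49 without P90 replicate 1, and -0.14 to -0.09 without E8.5 replicate 2 or 3, E13.5 replicate 3 or P90 replicate 3.

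The biogenesis counts also moved with the arrays. At E13.5 against E8.5 the count of 25 was 15, 11 and 14 without E8.5 replicate 1, 2 or 3, 14 without E13.5 replicate 3, 18 without E13.5 replicate 2 (median -1.35) and 8 with the 3 arrays dropped that have the largest Actb difference of their stage. In these settings 3.66% to 5.93% of all genes were called lower. The list's median stayed between -1.81 and -1.32 over the 23 alternatives. At P90 against E8.5 the count was 20 to 34 and the median -2.16 to -1.76, where 7.62% to 17.8% of all genes were called lower. The summed signal of 6 genes of cycling cells, such as Mki67 and Top2a, moved along, at 14310.4 to 19380.6 at E8.5, 1491.5 to 4947.9 at E13.5 and 463 to 1287.5 at P90. All 6 were lower at P90 than at E8.5, and their part in the ribosomal results was not tested.

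Translation factors were also lower at P90 in part. Of 37 tested, 12 fell and 1 rose between E8.5 and P90, with a median of -1.09, where 12.5% of all genes were called lower and 10.9% higher. Eif4ebp1, the mTORC1-controlled inhibitor of the cap-binding factor, fell from 1664.4 ± 388 to 390.4 ± 103.6 (-2.05 ± 0.35 SE, adjusted p = 0.00163), and Eif3d, a subunit of initiation factor eIF3, fell by 2 on the log2 scale (SE 0.48, adjusted p = 0.0112). The gene that rose was Eef1a2, the elongation factor form of neurons and muscle, from 41.2 ± 7.54 to 360.1 ± 219.6 (2.52 ± 0.69 SE, adjusted p = 0.0202); it was not called when any one of the E8.5 arrays, P90 replicate 2 or P90 replicate 3 was left out, nor with the 3 arrays dropped that have the largest Actb difference of their stage. Between E8.5 and E13.5, 4 fell, near the 7.22% of all genes called lower, and Eef1a2 rose (3.2 ± 0.69 SE, adjusted p = 0.00782), with a median of -0.66 and Eif5b (-1.89 ± 0.53 SE) and Eif4ebp1 (-1.79 ± 0.35 SE) at the head. Between E13.5 and P90 none of the 37 was called, with a median of -0.32. Without E13.5 replicate 2, 1 was called lower, with a median of -0.74, and 1 also without P90 replicate 1. Of all genes, 9.13% and 6.21% were called lower in these settings. The count of 12 at P90 was 3 or 4 without any E8.5 array or without P90 replicate 2 or 3. In those settings 7.62% to 9.33% of all genes were called lower. The count was 7 without E13.5 replicate 3 (11.2% of all genes), 18 without E13.5 replicate 2 (15.9%) and 20 without P90 replicate 1 (14.7%).

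Other mRNAs known to carry a TOP motif had 5 of 16 lower and 0 higher between E8.5 and P90, with a median of -0.9, where 12.5% of all genes were called lower. This list overlaps the translation factors and is no separate view of them. Named for both were Eef1a1, Eef1b2, Eef1d, Eef1g, Eef2, Pabpc1, Eif3e, Eif3f, Eif3h and Eif4b. Npm1, the nucleolar chaperone nucleophosmin, which is also in the biogenesis list, fell from 5896.5 ± 991.7 to 909.6 ± 218.9 (-2.69 ± 0.62 SE, adjusted p = 0.00871). Nap1l1, a nucleosome assembly protein, fell from 4568.7 ± 797.7 to 1056.6 ± 709.1 (-2.28 ± 0.56 SE, adjusted p = 0.0125). Between E8.5 and E13.5, 2 of 16 fell, Eif4b and Eef1d, which are also translation factors, with a median of -0.61, where 7.22% of all genes were called lower. Between E13.5 and P90 none was called, with a median of -0.36. Without E13.5 replicate 2, 3 of 15 were called lower, against 9.13% of all genes, with a median of -0.79. The count of 5 was 2 to 9 over the alternatives. It was 3 without any E8.5 array or P90 replicate 2 (7.62% to 9.33% of all genes) and 2 without P90 replicate 3 (8.44%). It was 9 without E13.5 replicate 2 (15.9%) and 8 without P90 replicate 1 (14.7%).

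Mitochondrial ribosomal proteins, which serve the separate ribosome of that organelle, had 9 of 76 lower and 0 higher between E8.5 and P90, close to the 12.5% of all genes called lower, with a median of -0.65. Mrpl12 fell from 1382.4 ± 780.4 to 199.6 ± 38.8 (-2.58 ± 0.54 SE, adjusted p = 0.00488) and Mrpl47 from 1260 ± 8.56 to 430.1 ± 204 (-1.64 ± 0.42 SE, adjusted p = 0.0156). Only Mrpl19 fell between E8.5 and E13.5 (-1.37 ± 0.41 SE, adjusted p = 0.0421), and none of the 76 was called between E13.5 and P90 with or without E13.5 replicate 2, with medians of -0.39 without it and -0.09 with it. The count of 9 was 2 to 4 if any E8.5 array, P90 replicate 2, P90 replicate 3 or E13.5 replicate 3 was dropped. These shares lie below the 7.62% to 11.2% of all genes called lower there. The count was 15 without E13.5 replicate 2 (15.9% of all genes) and 19 without P90 replicate 1 (14.7%). Between E8.5 and E13.5, leaving out each array in turn gave 1 to 6 translation factors, 0 to 3 other TOP mRNAs and 0 to 5 mitochondrial ribosomal proteins called lower. Of all genes, 3.66% to 8.95% were called lower in these settings. Without E13.5 replicate 2 the 3 counts were 1, 0 and 0 (5.93% of all genes), with medians of -0.29, -0.3 and -0.29. Of 12 tested regulators of ribosome synthesis, only 1 was called, lower at P90 than at E8.5, where 12.5% of all genes were called lower. It was Mycn, the Myc family member of the early nervous system (-3.25 ± 0.86 SE, adjusted p = 0.0174). Dropping E8.5 replicate 2 or 3 lost this call. Dropping replicate 3 also gave 1 regulator called higher in this comparison, beside 1089 of all 13476 tested genes. Without E13.5 replicate 2, 2 of the 12 were called lower, beside 15.9% of all genes.

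**Figure D5:**
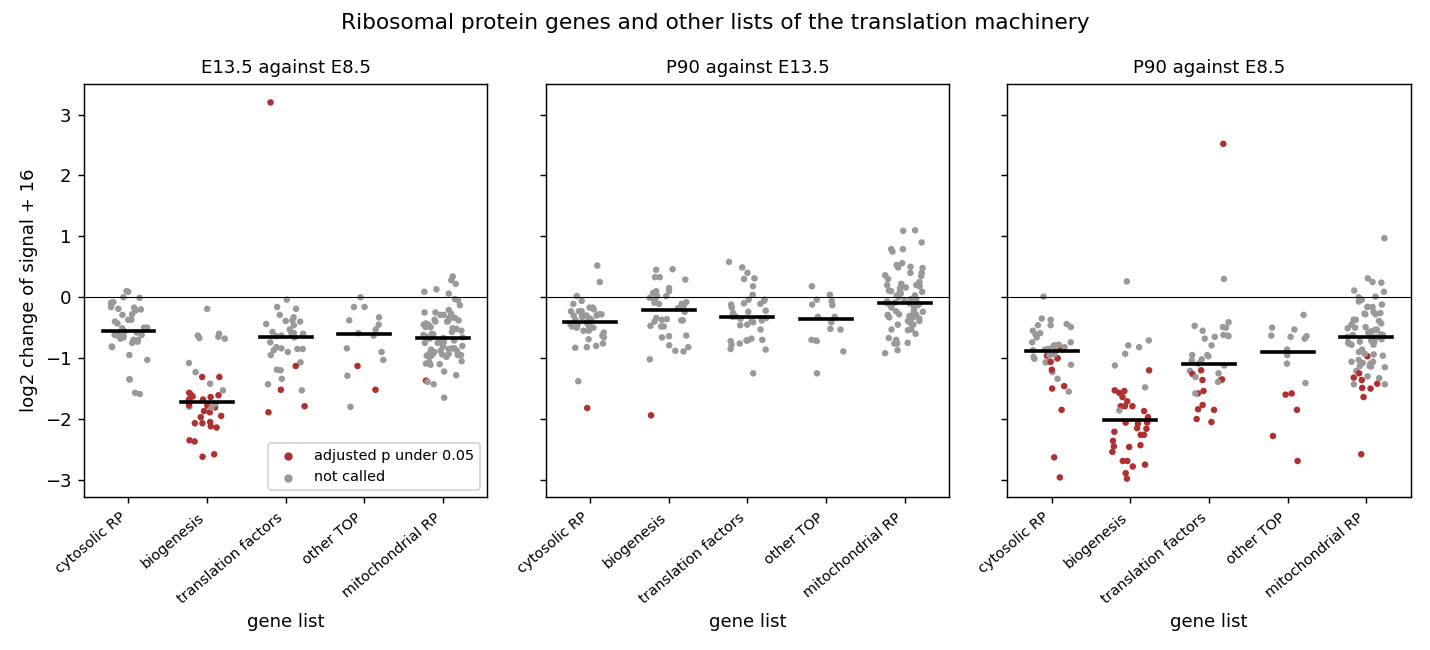
Log2 differences of every tested gene in the cytosolic ribosomal protein set and in 4 other lists, for the 3 comparisons; red points have an adjusted p under 0.05 and bars are medians. At E13.5 against E8.5 the biogenesis median is -1.72 and that of the ribosomal proteins -0.56, and at P90 against E8.5 they are -2.01 and -0.88. Genes named for several lists are drawn in each.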

How the data were processed

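Affymetrix arrays of 9 samples, 3 for each stage, were analysed from the series' value table, with 1 intensity per probe set and array as deposited by the authors. The submitters' processing notes list GCOS, MAS5, GCRMA and RMA; which of them made the table is not stated, and its values fit a linear signal. How arrays were scaled is not given in the sources used here, and the number of arrays limits the precision. Of 45101 probe sets (64 controls), 34945 carry 1 gene symbol, 932 several and 9160 none in the platform annotation. Another 110 probe sets with a ribosomal protein symbol among several symbols were left out, 28 such symbols occurring only there. Empty cells (1.98% of 405909 values) were left missing.

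Probe sets with 1 symbol were kept where the signal reached 26.1, the 40th percentile of all values, on at least 3 of 9 arrays, with at least 2 values per stage. The brightest kept probe set stood for its gene. Tests were run on log2(signal + 16) in limma 3.58.1 (R 4.3.3; lmFit, eBayes with a variance trend, 1 coefficient per stage, two-sided); p-values were adjusted by Benjamini-Hochberg over all 13748 genes, and a gene was called at an adjusted p under 0.05. The script was tested on simulated data. Alternatives covered scaling, pseudocount, filter, probe set choice, variance trend, replicate number as a block, the Actb difference, and leaving out each array; 2 were added after seeing the data.

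Named with full values were the 5 largest falls and rises among called members without empty cells and without overlap, and check members whatever their values; of those, Rpl3, Rpl5, Rpl10, Rpl10l, Rpl24, Rplp1 and Rps27a are not analysed here. Of the other lists, the 2 most changed called genes were named. The members, lists and tests were chosen with earlier results of these data known.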

Additional observations from a re-analysis of the deposited data

How the results depend on the processing

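The members' median difference stayed below 0 in all 3 comparisons under all 23 alternatives, and no member was called higher in any. For P90 against E13.5 with quantile normalization, little of it was left, at -0.08 beside -0.02 for all genes. For P90 against E8.5 the members' median was -0.7 to -1.11 when each array was left out in turn, and -0.41 with quantile normalization without E13.5 replicate 2. The 10 members called lower (23.3%, against 12.5% of all genes) became 34 with the Actb difference as a covariate (79.1% against 17.8%). They became 22 with only the 6 arrays compared (51.2% against 15.2%). Quantile normalization without E13.5 replicate 2 gave 18 (41.9% against 17.7%). With E8.5 replicate 1, E13.5 replicate 2 and P90 replicate 2 dropped (the largest Actb difference of their stages), 3 were called. That was 7.14% of the members, below the 9.31% of all genes. Leaving out each array in turn gave 4 to 27. The replicate block gave 8 (18.6% against 12.2%), all among the 10, and left the members' other 2 counts as they were. At E13.5 against E8.5 the block gave 4 mitochondrial ribosomal proteins in place of 1 and 1 other TOP mRNA in place of 2, where 6.82% of all genes were called lower. For E13.5 against E8.5 the count of 0 became 2 with quantile normalization (4.65% against 9.97%) and with only the 6 arrays (4.65% against 7.78%). It became 1 with a 60th percentile filter, without _x_at and _s_at probe sets and with quantile normalization without E13.5 replicate 2. The Actb covariate gave 4 (9.3% against 10.4%), and leaving out each array gave 0 to 2. For P90 against E13.5 the count of 1 became 0 with median centring, a pseudocount of 64, no filter and the mean of probe sets. It also became 0 with no _x_at and _s_at probe sets, no variance trend and only the 6 arrays. The Actb covariate gave 6 (14% against 9.61%) and quantile normalization without E13.5 replicate 2 gave 3 (6.98% against 7.77%). Leaving out each array gave 0 to 5. Same-numbered samples share only a number: their deviations from the stage means correlated at -0.37 to 0.38, and in 5 of 18 checks a sample correlated best with its own number. Median centring moved the median of all genes to -0.15 for P90 against E8.5. The causes were not tested. Signals near the top of the range and probe sets that match several sequences limit what the fold values can show.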
